A study of Mus musculus with 18 samples.

Results

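Immunoglobulin genes, 231 in all, were followed in total RNA of mouse uterus and ovary. They were the 12 constant genes (Ighm, Ighd, Igha, Ighe, Ighg1, Ighg2b, Ighg2c, Ighg3, Igkc and Iglc1 to Iglc3) and 219 variable genes, chosen by symbol and by a minimum of 10 counts summed over the 18 libraries. The variable genes comprised 114 of 185 listed heavy genes, 102 of 160 kappa genes and 3 of 3 lambda genes. Of 57010 gene IDs in the count tables, 360 matched the names, and 129 of these stayed under the minimum: 84 had no count and 45 had 1 to 9. At the edge of the rule, 7 members had exactly 10 counts, and Ighv1-28 and Ighv1-57, with 9 each, were left out.

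The libraries came from C57B6/J mice aged 20 to 25 weeks, of the genotypes WT, ARE+/- and ARE-/-, with 3 libraries for each genotype in each tissue. The labels do not spell out ARE; an allele of that name is known that removes an AU-rich element from the transcript of Ifng, the gene of interferon-γ, and the title of the series concerns hypophysitis induced by this cytokine. No agent was given, and no other allele is named. No label links a uterus to an ovary of the same animal, and estrous stage, housing group and library batch are not given in the sources used here. Uterus WT 1 and ovary ARE-/- 6 carry the word backup in their labels. Libraries are named below by tissue, genotype and the number in the label; ovary numbers are 1, 2 and 3 for WT, 1, 2 and 4 for ARE+/-, and 2, 3 and 6 for ARE-/-.

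An antibody consists of heavy and light chains, each with a variable domain that binds antigen and a constant part. The constant part of the heavy chain sets the class. During B cell development a variable gene is joined to a joining segment, so a transcript counted on a given variable gene marks the cells that chose it. Ighm is the heavy constant gene used first; class switch recombination then replaces it by a gamma, epsilon or alpha gene, and the cytokines a B cell meets direct the choice. In mice, interferon-γ is known to favour switching to IgG2c, interleukin-4 to IgG1 and IgE, and transforming growth factor-β to IgG2b and IgA. Plasma cells, which secrete antibody, carry far more immunoglobulin RNA than resting B cells, and IgA plasma cells are a normal part of mucosal tissue such as the uterus.

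The heavy isotypes are told apart by their constant exons. The first 90 bases of the first constant exon of the 4 gamma genes are given here, with bases that differ from Ighg2c in capitals, followed by the same stretch of Igha and Ighm, in which nothing is marked. They were read from GENCODE M21 transcripts (GRCm38), and all lie on the minus strand.
Ighg2c: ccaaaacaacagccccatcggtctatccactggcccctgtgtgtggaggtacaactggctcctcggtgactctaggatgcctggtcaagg
Ighg2b: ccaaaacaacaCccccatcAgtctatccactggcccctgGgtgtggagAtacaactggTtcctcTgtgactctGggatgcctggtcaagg
Ighg1: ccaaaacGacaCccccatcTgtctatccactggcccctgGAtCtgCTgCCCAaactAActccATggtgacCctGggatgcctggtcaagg
Ighg3: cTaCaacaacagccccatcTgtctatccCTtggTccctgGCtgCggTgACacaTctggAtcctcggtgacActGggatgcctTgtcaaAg
Igha: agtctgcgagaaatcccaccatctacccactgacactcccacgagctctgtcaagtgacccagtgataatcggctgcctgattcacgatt
Ighm: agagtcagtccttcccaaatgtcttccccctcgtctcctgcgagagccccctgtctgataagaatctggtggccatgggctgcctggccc
These exons lie at chr12:113288843-113288932, chr12:113307844-113307933, chr12:113330434-113330523, chr12:113361143-113361232, chr12:113260147-113260236 and chr12:113422641-113422730, in that order. Ighg2b differed from Ighg2c at 7 of these bases (92.2% identity), and Ighg1 and Ighg3 each differed at 18 (80.0%). Over whole transcripts, 5.5% of the 50-base words of Ighg2c also occurred in another immunoglobulin gene, in each case Ighg2b, while Igha, Ighm and Igkc shared none.

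The 3 lambda constant genes are shown the same way, with bases that differ from Iglc1 in capitals; all lie on the minus strand, and the Iglc2 stretch starts at the second base of its exon.
Iglc1: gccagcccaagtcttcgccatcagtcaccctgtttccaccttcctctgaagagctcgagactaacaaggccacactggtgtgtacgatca
Iglc2: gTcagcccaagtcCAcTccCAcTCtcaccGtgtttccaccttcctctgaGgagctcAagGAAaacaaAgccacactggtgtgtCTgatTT
Iglc3: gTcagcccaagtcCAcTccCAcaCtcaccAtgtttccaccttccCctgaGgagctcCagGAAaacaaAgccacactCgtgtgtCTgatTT
They lie at chr16:19061982-19062071, chr16:19198763-19198852 and chr16:19065592-19065681. Iglc3, 1 of the genes called below, shared 10.7% of its words with Iglc2, and Iglc1 shared none.

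Variable genes are harder to separate: 181 of 219 shared at least one 50-base word with another immunoglobulin gene, and 27 shared the larger part of their words. Stretches of 120 bases from the second exon, which encodes the variable domain, are given for genes on which results below turn: Igkv5-43 and its nearest relative Igkv5-45, Ighv1-15 and its nearest relative Ighv1-23, and Ighv5-4. Capitals mark bases in which the relative differs; all 5 genes lie on the minus strand.
Igkv5-43: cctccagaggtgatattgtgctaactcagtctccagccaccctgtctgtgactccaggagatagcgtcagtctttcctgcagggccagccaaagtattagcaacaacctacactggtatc
Igkv5-45: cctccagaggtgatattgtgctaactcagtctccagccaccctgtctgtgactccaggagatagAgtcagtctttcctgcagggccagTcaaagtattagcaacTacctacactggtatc
Ighv1-15: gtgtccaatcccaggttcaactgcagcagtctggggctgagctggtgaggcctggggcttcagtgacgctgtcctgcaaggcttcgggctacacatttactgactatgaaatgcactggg
Ighv1-23: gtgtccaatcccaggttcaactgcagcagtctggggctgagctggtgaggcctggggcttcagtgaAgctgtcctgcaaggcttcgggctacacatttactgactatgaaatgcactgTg
Ighv5-4: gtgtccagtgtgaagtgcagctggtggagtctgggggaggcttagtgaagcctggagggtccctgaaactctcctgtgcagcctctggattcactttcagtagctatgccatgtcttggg
Their positions are chr6:69823533-69823652, chr6:69775928-69776047, chr12:114657538-114657657, chr12:114764635-114764754 and chr12:113597633-113597752 (GRCm38). Igkv5-43 and Igkv5-45 differed at 3 of the bases shown and shared 51.2% of the words of Igkv5-43, and Ighv1-15 and Ighv1-23 differed at 2. The authors counted reads that map to several places once for each place, so a count on such a gene can hold reads of its relatives, and single variable genes are uncertain to that extent.

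Library totals ranged from 33185496 to 49720354 counts in uterus and from 38132822 to 46647171 in ovary. All 8 ovary-defining genes were higher and all 8 uterus-defining genes lower in ovary than in uterus of WT mice, so the tissue labels matched. Replicates differed by far more than counting error, with a chi-square per degree of freedom between 15.2 and 316, and every library was kept as 1 sample. The profiles of variable genes set apart one pair. Overlap, the sum over genes of the smaller of the 2 shares, was 86.0% for heavy and 87.8% for kappa genes between uterus WT 1 and uterus WT 3. The next highest pair of any kind was the uterus and the ovary library labelled ARE+/- 1, with 77.1% and 76.7%, and uterus pairs had medians of 56.6% and 59.7%. Whether uterus WT 1 and WT 3 come from separate mice was not tested, so results that change without either of them are given with those values.

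Immunoglobulin genes took 0.0807, 0.1001 and 0.0832% of all counts in the 3 uterus WT libraries. In uterus of ARE+/- mice they took 0.240, 0.160 and 0.211%, and in that of ARE-/- mice 0.150, 0.249 and 0.167%. Every uterus library of an altered genotype therefore lay above every WT library. In ovary the WT libraries were lower, with 0.0121, 0.0264 and 0.0176%, and the altered ones spread widely: 0.0701, 0.0398 and 0.220% in ARE+/- and 0.151, 0.388 and 0.0277% in ARE-/-. The ARE-/- ovary library numbered 6 lay next to the highest WT ovary, whereas ARE-/- ovary 3 held the largest share of the 18 libraries. In bulk RNA, more cells of a type and more RNA per cell cannot be told apart.

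Of the heavy constant genes in the uterus, Ighm and Ighg2c were called higher in both altered genotypes, and Ighg2b in ARE-/- alone. Ighm stood at 12.9, 23.4 and 17.2 CPM (counts scaled to a common library total) in WT, 59.1, 73.9 and 80.1 in ARE+/- and 100.3, 124 and 123 in ARE-/-. The 3 genotypes did not overlap, and the order followed the number of altered copies. In edgeR's quasi-likelihood test over all genes of the tissue, with Benjamini-Hochberg adjustment and a threshold of 0.05, the log2 fold change of Ighm against WT was 1.94 ± 0.22 (SE; adjusted p = 0.00702) in ARE+/- and 2.77 ± 0.23 (SE; adjusted p = 0.000592) in ARE-/-.

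Ighg2c, the constant gene of IgG2c, showed the largest change of any constant gene in the uterus. It went from 2.00, 3.55 and 2.02 CPM in WT to 20.3, 39.2 and 31.0 in ARE+/- and 79.6, 83.2 and 35.5 in ARE-/-. No altered library came within reach of WT, while ARE-/- 3 lay inside the ARE+/- range. The log2 fold change was 3.52 ± 0.42 (SE; adjusted p = 0.00738) in ARE+/- and 4.81 ± 0.45 (SE; adjusted p = 0.000783) in ARE-/-. Its neighbour Ighg2b had 3.35, 4.61 and 4.46 CPM in WT, 14.1, 25.2 and 11.3 in ARE+/- and 20.7, 16.5 and 47.2 in ARE-/-. It rose in ARE-/- by 2.82 ± 0.43 (SE; adjusted p = 0.00853), and the value in ARE+/-, 1.95 ± 0.42 (SE; adjusted p = 0.0633), missed the threshold. Of 17 alternatives, the ARE-/- call of Ighg2b was lost in 2, and ARE+/- passed in 5.

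Ighg1, the class linked to interleukin-4, was called in neither altered genotype of the uterus. Its uterus libraries held 1.22, 0.552 and 1.44 CPM in WT, 1.73, 1.26 and 5.36 in ARE+/- and 0.326, 2.07 and 0.422 in ARE-/-, and the genotypes overlapped. Its log2 fold change in ARE+/- was 1.32, and it ranged from 0.38 to 1.68 over 17 alternatives. In ARE-/- the log2 fold change was -0.19 ± 0.79 (SE; adjusted p = 0.924), and that sign turned when 1 of several libraries was left out. Per kilobase, the ratio of Ighg2c to Ighg1 was 3.33, 13.2 and 2.87 in WT, 24.0, 63.6 and 11.8 in ARE+/- and 499.6, 82.3 and 172 in ARE-/-. Ighg1 rests on 14 to 193 counts a library, so these ratios are coarse. Ighg3 was near the limit of counting in all uterus libraries, with 0 to 0.825 CPM, and Ighe, the class of allergic responses, did not pass the filter on low counts.

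Igha was the most abundant heavy constant gene in each uterus library. It measured 343, 403 and 343 CPM in WT, 1039.5, 564 and 855 in ARE+/- and 486, 913 and 586 in ARE-/-. All altered libraries lay above the WT libraries. The log2 fold changes, 1.12 ± 0.27 (SE; adjusted p = 0.0865) in ARE+/- and 0.92 ± 0.27 (SE; adjusted p = 0.0951) in ARE-/-, missed the threshold in the main edgeR fit and passed it in DESeq2 (adjusted p = 0.00449 and 0.0210). Of 17 alternatives, DESeq2 included, Igha passed in 2 in ARE+/- and in 1 in ARE-/-. Ighd, expressed with Ighm on naive B cells, had a log2 fold change of 1.45 ± 0.42 (SE; adjusted p = 0.0964) in ARE-/-, which passed only in DESeq2 among the alternatives run.

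Among the light chains, Igkc, the single kappa constant gene, measured 178, 233 and 213 CPM in WT, 658, 444 and 492 in ARE+/- and 413, 662 and 402 in ARE-/- uterus. It rose by 1.29 ± 0.24 (SE; adjusted p = 0.0357) and 1.30 ± 0.24 (SE; adjusted p = 0.0167) on the log2 scale. These calls were lost in 7 of 17 alternatives in ARE+/- and in 3 of 17 in ARE-/-, among them without uterus WT 1 and without WT 3 for both. Both altered groups lay above WT and overlapped each other. Iglc3 rose in ARE-/- by 2.01 ± 0.39 (SE; adjusted p = 0.0235), from 0.479, 0.883 and 0.441 to 1.79, 2.72 and 2.47 CPM. Iglc1 varied among replicates, with 7.13, 36.1 and 5.53 CPM in WT, and its fold change in ARE-/-, 1.00 ± 0.89 (SE; adjusted p = 0.580), lay within that spread.

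Of 231 immunoglobulin genes, 164 passed the filter on low counts in uterus. In ARE-/- against WT, 21 were called higher and 1 lower, where 3.36% of all 24277 genes tested were called higher and 0.391% lower. The median log2 fold change of the 164 was 1.27 against 0.04 over all genes. In ARE+/- against WT, 13 were called higher and 0 lower (background 1.08% and 0.0535%), with medians of 1.31 and 0.01. Between ARE-/- and ARE+/- edgeR called 0 (background 0% higher and 0% lower), with 22 at an unadjusted p under 0.05 and 2 called lower by DESeq2 (background 0.721% and 0.0497%). DESeq2 called 47 higher and 1 lower in ARE-/- (background 7.45% and 2.52%) and 45 and 2 in ARE+/- (background 4.41% and 1.23%), both against WT. The edgeR number called in ARE-/- fell from 22 to 2, Ighm and Ighg2c, without uterus WT 1 and also without uterus WT 3, and the number in ARE+/- fell from 13 to 0 in both cases. Over all genes, 0.784% and 0.751% were then called higher in ARE-/-. The shares in ARE+/- are not given here, so the fall to 0 cannot be read as particular to immunoglobulin genes.

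**Figure D1:**
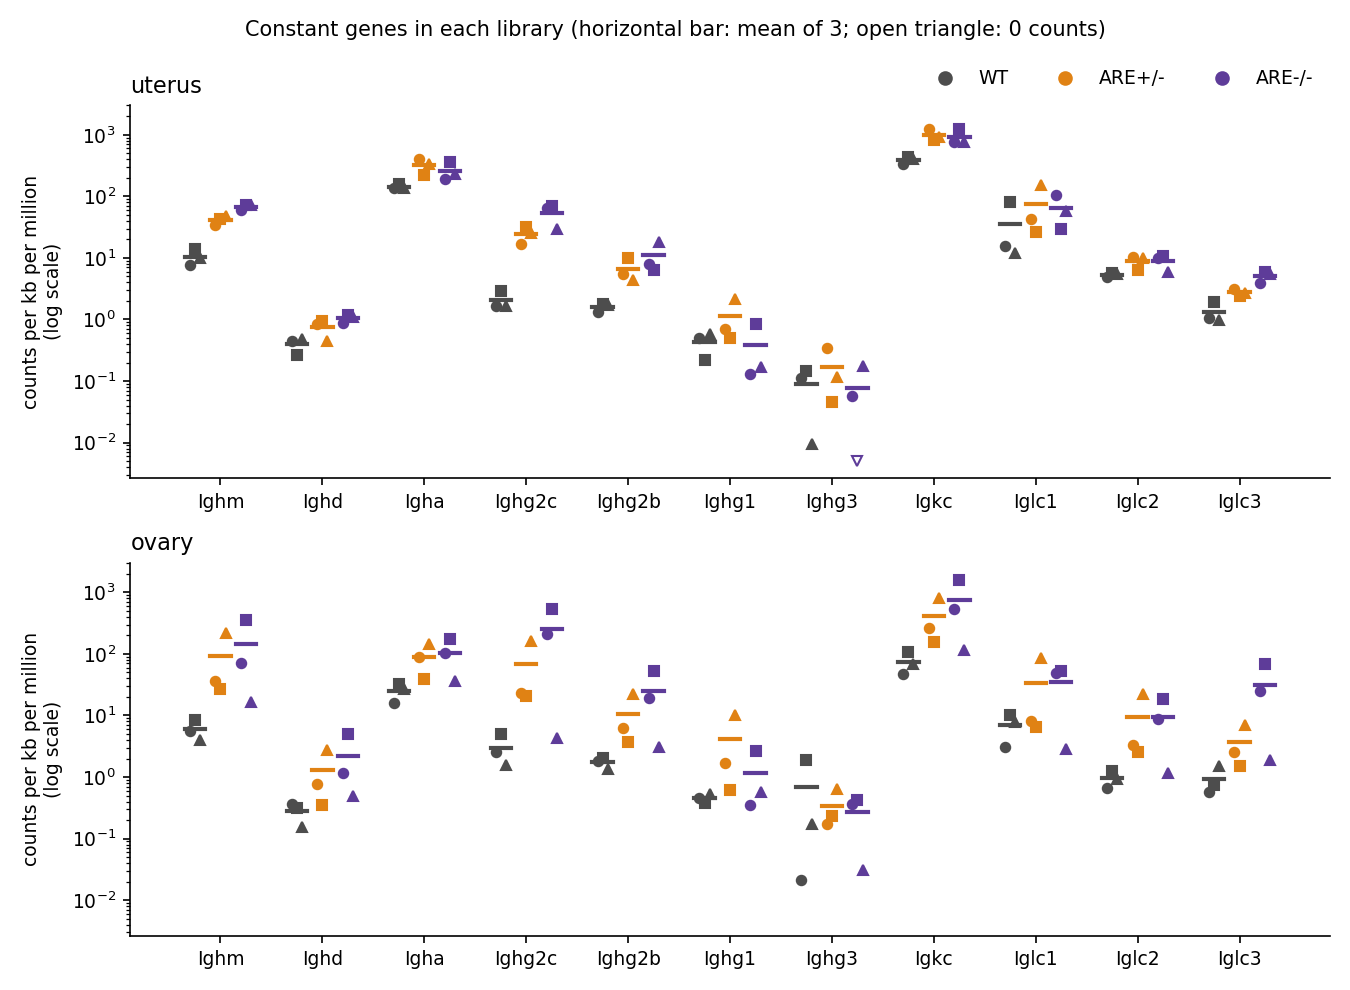
Level of 11 constant genes in each library, in counts scaled to gene length and library total (RPKM) on a log axis, for uterus (top) and ovary (bottom); points are libraries, coloured by genotype with a shape for each library of a group, horizontal bars are means of 3, and an open triangle marks 0 counts. In uterus Ighm, Ighg2c, Ighg2b, Igha, Igkc, Iglc2 and Iglc3 each separate WT from both altered genotypes, and in ovary 1 ARE-/- library lies low for most genes.

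The ovary held the same classes with a much wider spread in the altered genotypes. In WT, the means of Igha, Ighm and the light chain genes were lower in ovary than in uterus. Those of the gamma genes were not, with 3.67 against 2.52 CPM for Ighg2c and 4.48 against 4.14 for Ighg2b. Ighm measured 9.55, 14.3 and 6.72 CPM in WT, 61.5, 45.4 and 368 in ARE+/- and 119.7, 603 and 28.5 in ARE-/- ovary. All altered ovaries lay above WT, but ARE-/- 6 lay below every ARE+/- ovary. The log2 fold change was 3.97 ± 1.36 (SE; adjusted p = 0.228) in ARE+/- and 4.66 ± 1.40 (SE; adjusted p = 0.0862) in ARE-/-, and neither passed the threshold.

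Ighg2c ran from 3.06, 6.04 and 1.90 CPM in WT to 28.3, 25.4 and 193 in ARE+/- and 259, 653 and 5.20 in ARE-/- ovary. In ARE-/- 2 and 3 it exceeded Ighm per kilobase, and ARE-/- 6 lay within the WT range. Its log2 fold change in ARE-/- was 6.43 ± 1.85 (SE; adjusted p = 0.0766); without ARE-/- 6 it was 6.98 with an adjusted p of 0.0244, and the gene passed. Ighg2b behaved alike, with 4.76, 5.21 and 3.45 CPM in WT and 49.2, 134 and 8.04 in ARE-/-, a log2 fold change of 3.87 ± 1.14 (SE; adjusted p = 0.0818), and 4.38 (adjusted p = 0.0309) without ARE-/- 6.

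Igha measured 39.9, 81.8 and 68.1 CPM in WT, 225, 98.5 and 364 in ARE+/- and 263, 441 and 93.7 in ARE-/- ovary. Each altered ovary lay above each WT ovary, and the log2 fold change in ARE-/- was 2.12 ± 0.68 (SE; adjusted p = 0.0994). Igkc went from 25.5, 57.4 and 36.3 CPM in WT to 282, 848 and 62.1 in ARE-/-, a log2 fold change of 3.37 ± 1.07 (SE; adjusted p = 0.0989). Without ARE-/- 6, Igha and Igkc both passed, at log2 fold changes of 2.50 and 3.86 (adjusted p = 0.0441 and 0.0430).

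Iglc3 was the only constant gene called in the ovary. It measured 0.255, 0.334 and 0.695 CPM in WT, 1.15, 0.686 and 3.17 in ARE+/- and 11.2, 30.6 and 0.866 in ARE-/-. The rise of 5.10 ± 1.30 (SE; adjusted p = 0.0498) in ARE-/- stood at the threshold, and it was lost under 11 of 17 alternative settings. Ighg1 was highest in ARE+/- 4, at 25.6 CPM, and measured 0.883, 6.49 and 1.41 CPM in ARE-/-, with a log2 fold change of 1.42 ± 1.14 (SE; adjusted p = 0.484). In ARE+/- its log2 fold change was 3.22 and was not called. Each ARE+/- ovary held at least 1.54 CPM of Ighg1, and each WT ovary at most 1.34. Ighe exceeded 2 counts in a single ovary, ARE-/- 3, with 132 counts (3.28 CPM); the other 8 ovaries held 0 to 2 counts. Ighg3 was carried by 1 WT ovary, number 2, with 180 counts against 2 to 59 in the others.

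In ovary 158 of 231 immunoglobulin genes passed the filter. Against WT, 11 were called higher and 0 lower in ARE-/- (background 6.31% higher and 4.15% lower of 24457 genes), with a median log2 fold change of 3.19 against 0.02 over all genes. The share called higher was thus close to that over all genes. Without ovary ARE-/- 6 the number rose to 55, where 8.03% of all genes were called higher, and it fell to 1 without WT 1 and to 2 without WT 3, where 2.05% and 2.82% were. DESeq2 called 78 higher and 0 lower in ARE-/- (background 9.61% and 7.34%). In ARE+/- edgeR called 0 (background 1.35% and 0.356%), with 66 at an unadjusted p under 0.05 and 46 called higher by DESeq2 (background 4.25% and 2.14%); the median was 2.75 against 0.02. Between ARE-/- and ARE+/- edgeR called 0 (background 0.0491% and 0%), with 3 at an unadjusted p under 0.05 and 0 called by DESeq2 (background 0.581% and 0.233%). Both altered groups were set against the same WT libraries.

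**Figure D2:**
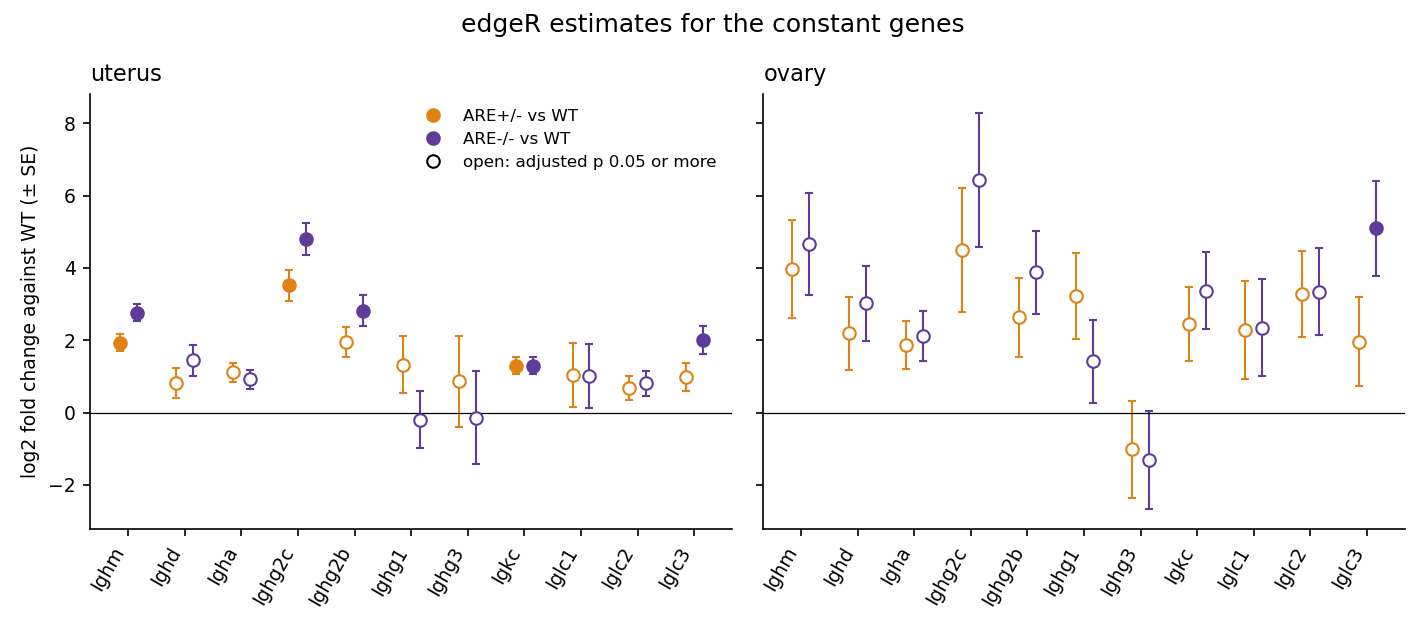
edgeR log2 fold change against WT (point) with its standard error (bar) for 11 constant genes in uterus (left) and ovary (right); filled points passed an adjusted p of 0.05. Ovary estimates are larger with wider errors, and Iglc3 is the filled one among them.

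Isotype shares set these levels against one another within a library. A share is the count of 1 heavy constant gene per kilobase over the sum of the 8, with the gene lengths of the count tables. These lengths merge the exons of the secreted and the membrane form, which lowers the shares of Igha, Ighg1, Ighg2b, Ighg3 and Ighd; for Igha the listed length is 2540 bases against 1100 for its shortest transcript; the length of Ighg2c differs little (1214 and 1111). Shares from plain counts are therefore given beside those per kilobase. Slopes are in percentage points per altered copy, tested over the 9 libraries of a tissue with an exact two-sided permutation test over all arrangements of the libraries, and adjusted over 18 shares; 3 against 3 libraries could not go below p = 0.10, so pairs of genotypes are described only.

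In uterus, IgA lost share to IgM and IgG2c. Igha made up 92.1, 89.2 and 90.2% of heavy constant RNA in WT, 87.4, 71.8 and 80.8% in ARE+/- and 58.9, 70.5 and 65.5% in ARE-/-. The highest ARE-/- library stayed under the lowest ARE+/- library, and that of ARE+/- under the lowest WT library. The slope was -12.8 points per copy (exact permutation p = 0.00119, the smallest the design allows; adjusted p = 0.0214). From plain counts the group means were 93.2 ± 1.01%, 86.1 ± 5.77% and 74.8 ± 4.80% (SD, n = 3 each).

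Ighm took 5.16, 7.77 and 6.79% of the uterus total in WT, 7.43, 14.1 and 11.3% in ARE+/- and 18.2, 14.4 and 20.6% in ARE-/-. Its slope was 5.57 points per copy (exact permutation p = 0.00357; adjusted p = 0.0214). Ighg2c took 1.12, 1.65 and 1.11% in WT, 3.58, 10.4 and 6.12% in ARE+/- and 20.2, 13.4 and 8.30% in ARE-/-, with a slope of 6.34 points (exact permutation p = 0.00357; adjusted p = 0.0214). WT was separate from both altered genotypes for Ighg2c, while ARE+/- 1 lay inside the WT range for Ighm.

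Plain counts gave mean Ighm shares of 4.53 ± 0.932%, 7.94 ± 2.65% and 13.6 ± 2.43% (SD, n = 3 each, in the same order) and mean Ighg2c shares of 0.637 ± 0.154%, 3.50 ± 1.91% and 7.77 ± 3.57%. These 3 of 18 shares passed; none did without uterus WT 1, without WT 3 or without ARE+/- 3, where each had an adjusted p of 0.0643 in the same exact permutation test with fewer arrangements. Ighg2c also failed without WT 2 (exact permutation, adjusted p = 0.0536) and without ARE-/- 1 (adjusted p = 0.0643). Ighg2b had a mean share of 1.02 ± 0.136% in WT and 2.99 ± 2.03% in ARE-/- (SD, n = 3 each) without passing (exact permutation, adjusted p = 0.204).

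The ovary had slopes of the same sign for Igha, Ighm and Ighg2c with more scatter, and none of its 9 shares passed. Igha made up 59.2, 64.1 and 77.6% of heavy constant RNA in WT, 56.4, 42.4 and 25.8% in ARE+/- and 25.3, 15.4 and 59.3% in ARE-/- ovary, a slope of -16.8 points per copy (exact permutation p = 0.0429; adjusted p = 0.136). Ighg2c took 9.48, 9.90 and 4.54% in WT, 14.9, 22.9 and 28.7% in ARE+/- and 52.3, 47.7 and 6.88% in ARE-/-, a slope of 13.8 points (exact permutation p = 0.0452; adjusted p = 0.136). In ARE-/- 2 and 3 it was the leading heavy class per kilobase. In ARE-/- 2 this order rests on the length used: Igha had 37.9% and Ighg2c 37.3% of plain counts, and 39.8% and 38.8% with the shortest transcript as length. ARE-/- 6 lay within the WT range for both genes. Without ARE-/- 6 the slopes were -23.5 and 20.5 points, and both passed (exact permutation, adjusted p = 0.0193 and 0.0161).

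From plain counts, Igha had mean shares of 74.2 ± 7.86%, 52.3 ± 15.5% and 43.2 ± 22.6% in WT, ARE+/- and ARE-/- ovary, and Ighg2c had 4.27 ± 1.69%, 13.8 ± 5.33% and 25.5 ± 18.8% (SD, n = 3 each). The highest Ighm share, 39.0% per kilobase, was in ARE+/- 4. Ighg2b stayed between 4.00% and 5.04% in the 6 altered ovaries, against 6.99, 4.05 and 3.89% in WT. Of the 9 differences in slope between ovary and uterus, none passed (exact permutation; Igha -4.04 points, adjusted p = 0.829; Ighg2c 7.47 points, adjusted p = 0.532).

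**Figure D3:**
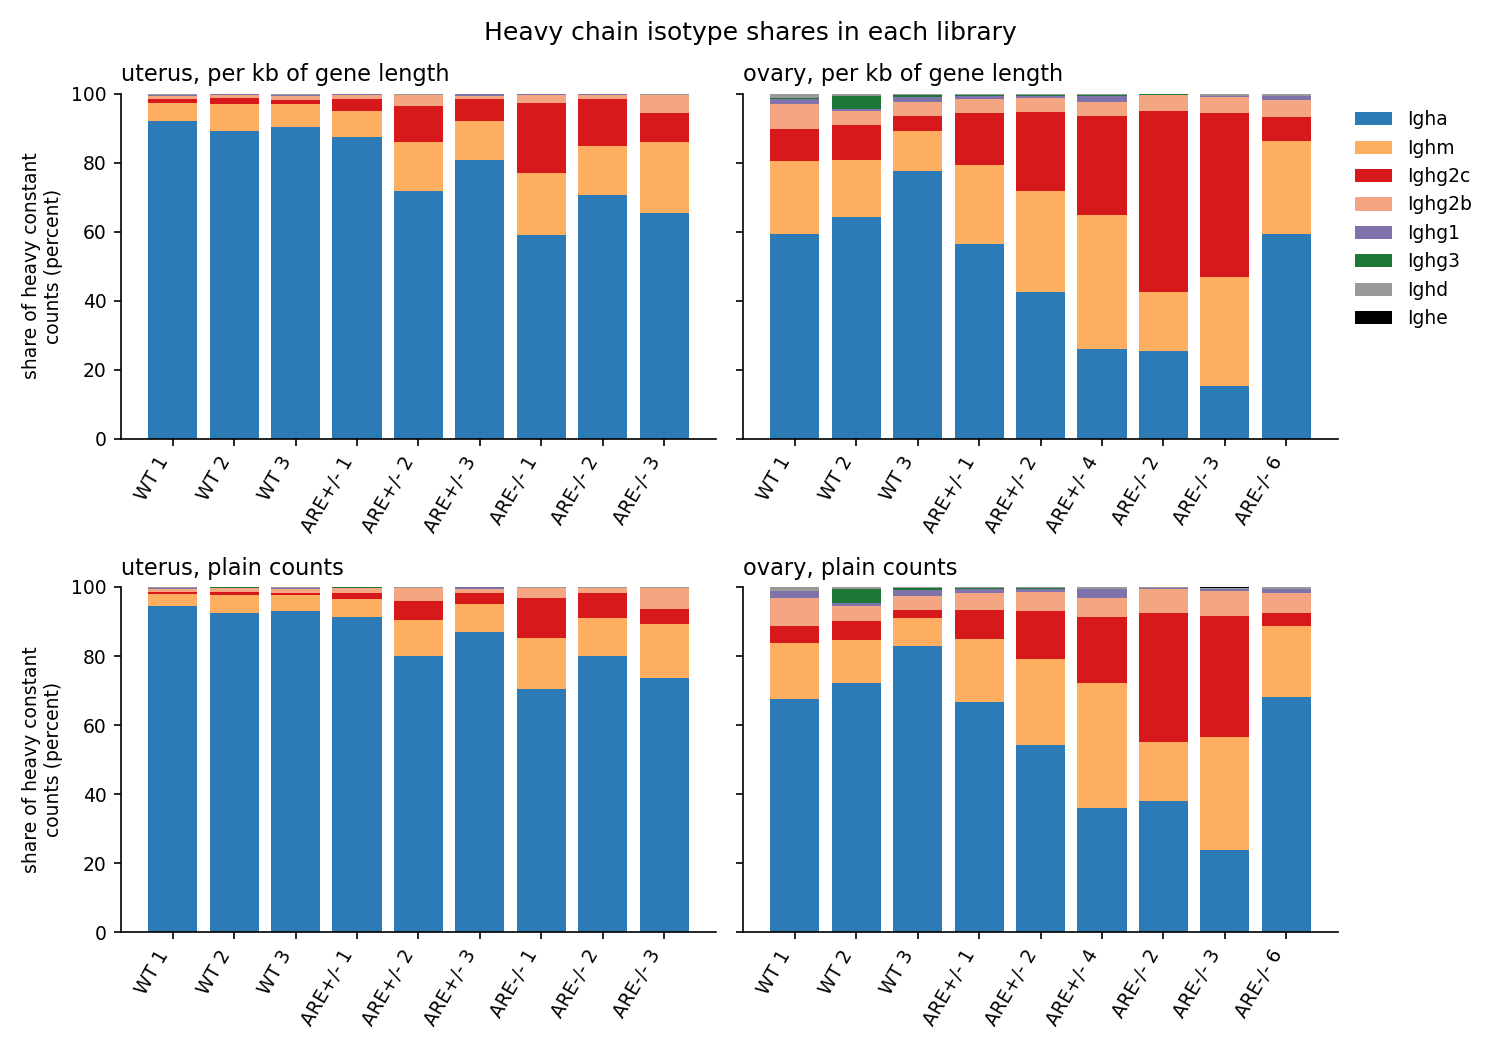
Share of the 8 heavy constant genes in each library, as stacked bars in percent, for uterus (left) and ovary (right), from counts per kilobase (top) and from plain counts (bottom). Igha shrinks from WT to ARE-/- uterus, and Ighg2c is the widest band of ovary ARE-/- 2 and 3 per kilobase but not of ARE-/- 6.

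The tissues differed in class averaged over genotypes. Igha made up 47.3% of heavy constant RNA in ovary and 78.5% in uterus, a difference of -31.2 points (exact permutation within genotype, two-sided; adjusted p = 0.00150). Ighm (24.0% and 11.7%, adjusted p = 0.00169), Ighg2c (21.9% and 7.33%, adjusted p = 0.0125) and Ighg2b (4.60% and 1.94%, adjusted p = 0.00180) took larger shares in ovary by the same exact test. Ighg1, Ighg3 and Ighd also passed, at mean shares below that of Ighg2b in both tissues, and Ighe and the kappa share of light chains did not. The Ighg2c call was lost without uterus ARE-/- 2 (adjusted p = 0.0505) and without ARE-/- 3 (adjusted p = 0.0559), and that of Ighg3 without any 1 of the uterus WT libraries.

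In WT mice Igha, Igkc and Iglc2 were the constant genes that differed between tissues. Igha differed between ovary and uterus by -2.67 ± 0.52 (SE; adjusted p = 0.00151) on the log2 scale (lower in ovary), Igkc by -2.54 ± 0.73 (SE; adjusted p = 0.0191) and Iglc2 by -2.63 ± 0.86 (SE; adjusted p = 0.0346). Ighm, with -0.96 ± 0.86 (SE; adjusted p = 0.469), Ighg2c, with 0.39 ± 1.12 (SE; adjusted p = 0.848), and Ighg2b, with -0.04 ± 0.79 (SE; adjusted p = 0.979), were not called. Of 175 immunoglobulin genes tested, 0 were higher and 34 lower in WT ovary (background 13.3% higher and 11.9% lower of 26682 genes), with a median log2 difference of -1.98 against -0.02 over all genes. DESeq2 called 1 higher and 55 lower (background 15.4% and 14.5%). The 34 fell to 3 without ovary WT 1, to 13 to 19 without either other ovary WT library, and to 13 and 14 without uterus WT 1 and WT 3. The shares of all genes called in these fits are not given here, so these falls cannot be read as particular to immunoglobulin genes. In the test of whether the ARE-/- effect differed between tissues, edgeR called 0 (background 0.0600% and 0.109%), with 29 at an unadjusted p under 0.05 and 10 called by DESeq2, all higher (background 1.40% and 1.96%).

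Light chain use stayed mostly kappa. The kappa share of light constant RNA per kilobase ran from 83.4% to 96.4% over the 18 libraries, with no slope that passed in uterus (0.320 points per copy, exact permutation, adjusted p = 0.882) or ovary (0.884 points, adjusted p = 0.651). The uterus sign turned without WT 2 or without ARE-/- 2. The lambda share was largest in uterus WT 2, where Iglc1 took 15.1% of light chain RNA per kilobase. Iglc2 and Iglc3 together took 5.46, 4.98 and 2.52% in ARE-/- ovary, 2.37, 1.68 and 3.15% in WT ovary and 1.00% to 1.68% in uterus. Heavy constant RNA per kilobase amounted to 0.338 to 0.427 times light constant RNA in uterus and to 0.418 to 0.667 times in ovary.

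Variable genes made up the other part of the calls. Of them, 16 were higher and 1 lower in ARE-/- uterus (background 3.36% and 0.391%), and 10 were higher in ARE+/- uterus (background 1.08%). Igkv8-19 had 2, 0 and 0 counts in uterus WT, 534, 26 and 100 in ARE+/- and 118, 240 and 20 in ARE-/-. Summed over libraries this was 2 counts in WT and 378 in ARE-/-, a ratio of 205 after scaling to library totals with an exact 95% counting interval of 56.3 to 1696 that covers counting error only. edgeR called it in both altered genotypes (adjusted p = 0.0478 in ARE+/- and 0.0308 in ARE-/-), and the calls were lost in 8 and 5 of 17 alternatives, each uterus WT library left out among them.

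Igkv4-58 likewise had 0, 2 and 0 counts in uterus WT and 22, 104 and 40 in ARE-/-, a ratio of 89.9 (exact counting interval 24.5 to 748; edgeR adjusted p = 0.0101). Igkv4-80 went from 0, 2 and 4 counts in WT to 204, 264 and 72 in ARE+/- uterus, a log2 fold change of 6.39 ± 0.81 (SE; adjusted p = 0.00758). Igkv4-61 rose in both, with 3.92 ± 0.77 (SE; adjusted p = 0.0469) in ARE+/- and 3.71 ± 0.76 (SE; adjusted p = 0.0288) in ARE-/-. Of its 50-base words, 52.0% also occur in other genes, so its counts can hold their reads.

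Among heavy variable genes, Ighv5-4 had 7, 19 and 6 counts in WT, 88, 47 and 77 in ARE+/- and 197, 765 and 70 in ARE-/- uterus and rose in ARE-/- by 5.12 ± 0.83 (SE; adjusted p = 0.0108). Ighv1-5, which shares 1.16% of its words with another gene, had 2, 0 and 2 counts in WT and 64, 43 and 20 in ARE-/-, a rise of 5.01 ± 0.91 (SE; adjusted p = 0.0168). Ighv1-55 rose by 3.46 ± 0.62 (SE; adjusted p = 0.0335) in ARE+/- and 3.47 ± 0.62 (SE; adjusted p = 0.0163) in ARE-/-, and Ighv1-7 by 2.84 ± 0.54 (SE; adjusted p = 0.0424) in ARE+/-. Ighv1-15 was the single gene called lower: 321, 192 and 462 counts in WT against 46, 53 and 135 in ARE+/- and 39, 24 and 30 in ARE-/-, a log2 fold change of -3.21 ± 0.61 (SE; adjusted p = 0.0210). None of these variable genes was called in ARE-/- without uterus WT 1 or without WT 3.

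In ovary, 10 variable genes were called higher in ARE-/-, where 6.31% of all genes tested were. As given above, the share of immunoglobulin genes called higher was close to that over all genes. Ighv2-6-8 had 2, 0 and 2 counts in WT and 52, 58 and 74 in ARE-/-, a log2 fold change of 5.38 ± 1.09 (SE; adjusted p = 0.0146), and was as high in ARE-/- 6 as in ARE-/- 2 and 3. Igkv4-68 had 2, 4 and 9 counts in WT against 89, 183 and 40 in ARE-/-, a rise of 4.34 ± 0.86 (SE; adjusted p = 0.0143). Ighv2-9-1 had 4, 0 and 10 counts in WT against 216, 253 and 29 in ARE-/- (log2 difference 5.11 ± 1.14, SE; adjusted p = 0.0272). Igkv15-103, with 14, 26 and 6 counts in WT against 1144, 470 and 62 in ARE-/- (log2 difference 5.16 ± 1.26, SE; adjusted p = 0.0426), and Igkv4-55, with 6, 6 and 4 counts in WT against 841, 121 and 20 in ARE-/- (log2 difference 5.89 ± 1.47, SE; adjusted p = 0.0444), drew most of their ARE-/- counts from library 2. All ARE-/- values of these 5 genes lay above the WT values. The genes were picked from those called higher, so this separation is no separate support. Each of the 5 calls was lost without WT 1.

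The 5 variable genes with the largest called difference between the tissues of WT mice were all lower in ovary. Igkv16-104 had 258, 22 and 334 counts in uterus WT and 0 in each ovary WT library, so it was at least 190.2-fold lower in ovary against a floor of 3 counts over the group, or 154-fold by the exact two-sided 95% counting limit (edgeR adjusted p = 0.00404). Ighv1-15 was lower in ovary by a log2 difference of -4.61 ± 0.90 (SE; adjusted p = 0.00137). Ighv1-62-2 (log2 difference -5.34 ± 1.53, SE; adjusted p = 0.0183) and Ighv1-71 (log2 difference -4.92 ± 1.66, SE; adjusted p = 0.0420) cannot be told from each other, since Ighv1-71 shares 97.4% of its words with Ighv1-62-2, and uterus WT 2 held 2 and 0 counts of them. Ighv1-42 (log2 difference -4.21 ± 1.43, SE; adjusted p = 0.0419) had 168 and 243 counts in uterus WT 1 and 3 and 21 in WT 2.

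The counts of WT uterus were concentrated on few kappa variable genes. Igkv5-43 took 19.9, 4.84 and 21.2% of kappa variable counts in WT, 4.92, 4.35 and 5.61% in ARE+/- and 2.94, 3.66 and 1.25% in ARE-/- uterus. In counts it measured 1008, 286 and 1126 in WT and 206, 512 and 90 in ARE-/-, and its log2 fold change, -1.52 ± 0.62 (SE; adjusted p = 0.212), was not called. The high shares belong to WT 1 and WT 3, the pair with like profiles, while in WT 2 the leading gene was Igkv1-110 with 14.6%. Igkv1-110 led the kappa genes in 7 of 18 libraries, among them all 3 WT ovaries, with 10.6% to 12.1%.

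The effective number of genes, the inverse of the Simpson sum, counts how many equally used genes would give the same concentration. For kappa it was 14.1, 18.7 and 14.1 in uterus WT, 28.6, 30.5 and 35.3 in ARE+/- and 31.6, 31.1 and 29.6 in ARE-/-. All 6 altered uteri lay above WT, and the difference between the ARE-/- and WT means stayed between 14.4 and 16.7 when single libraries were left out. Both WT values of 14.1 belong to the pair of uteri with like profiles. Leaving out single libraries always keeps a member of that pair, so this range cannot show how far the difference rests on it. The remaining WT uterus, at 18.7, also lay below every altered uterus. For heavy genes it was 29.8, 19.0 and 26.4 in WT, 31.4, 36.0 and 36.4 in ARE+/- and 32.7, 38.6 and 34.6 in ARE-/- uterus, again without overlap. At a common depth of 756 kappa counts, 60.6 to 62.2 kappa genes were expected in WT uterus and 66.7 to 71.6 in the altered ones. These measures are sums over the members and are given without a test.

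In ovary the separation depended on the measure of spread. Kappa genes had effective numbers of 25.2, 24.4 and 23.7 in WT, 36.6, 25.5 and 35.1 in ARE+/- and 26.1, 25.2 and 26.9 in ARE-/-. Heavy genes had 21.9, 29.7 and 30.1 in WT, 32.5, 29.5 and 46.8 in ARE+/- and 25.8, 25.7 and 39.0 in ARE-/-, and the genotypes overlapped. The effective number from Shannon entropy, which weighs rare genes more, was higher in each altered ovary than in each WT ovary: 38.8 to 49.0 against 34.9, 36.5 and 35.0 for kappa, and 43.5 to 60.4 against 28.7, 41.9 and 39.9 for heavy genes. Thinned to 481 counts a library, heavy genes with a count numbered 47.0, 64.9 and 60.8 in WT and 66.2 to 78.2 in the altered ovaries, again with no overlap. At 756 kappa counts they numbered 55.0, 62.2 and 63.6 and 62.8 to 71.6, where ARE-/- 6 lay within the WT range. The ovary WT libraries rest on 481, 1405 and 758 heavy variable counts, against 4138 or more in each uterus, so their spread is measured less precisely. The broadest heavy profile of the 18 libraries was that of ovary ARE+/- 4, and by this first effective number the narrowest was that of uterus WT 2; by Shannon entropy and at 481 counts the narrowest was ovary WT 1.

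**Figure D4:**
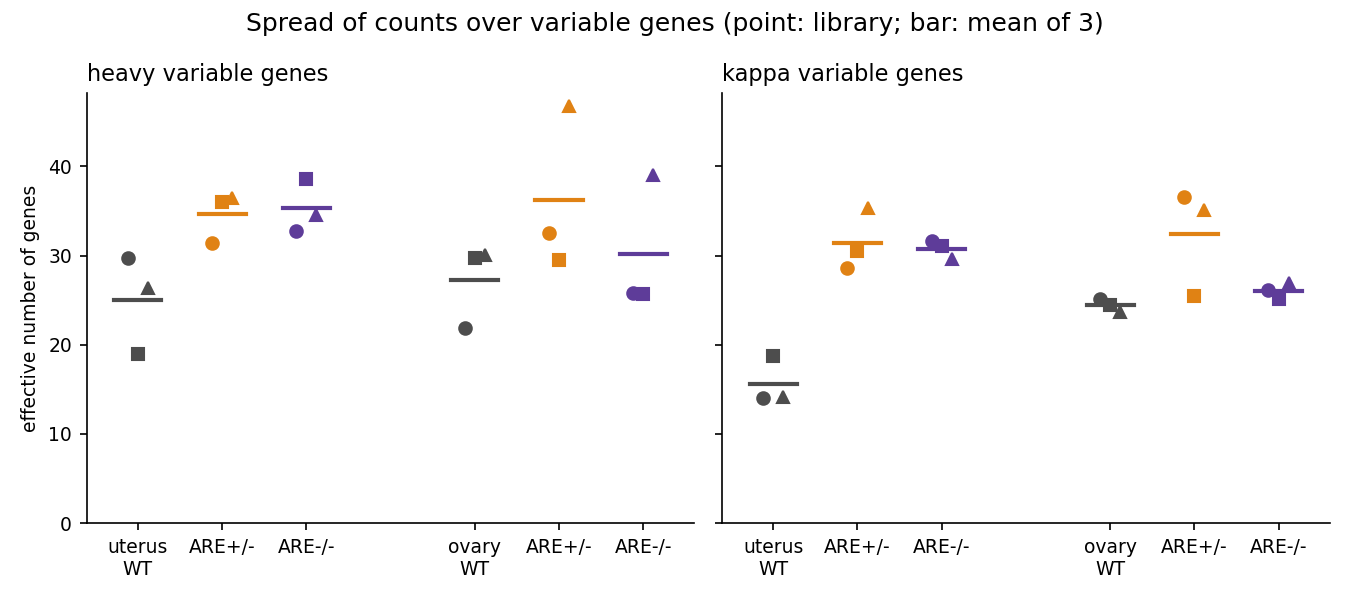
Effective number of heavy (left) and kappa (right) variable genes in each library, by tissue and genotype; points are libraries and bars are means of 3. For kappa genes the 3 uterus WT libraries lie between 14.1 and 18.7, below the 15 other libraries.

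Leading genes differed from library to library. In all, 12 heavy and 9 kappa genes led at least 1 library. Ighv5-4 took 13.6% of heavy variable counts in ovary ARE-/- 3 and 6.36% in uterus ARE-/- 2, and Igkv17-121 took 12.6% of kappa counts in ovary ARE-/- 3. In ovary ARE-/- 2 the leaders were Ighv1-26 with 12.8% and Igkv15-103 with 11.2%, so the 2 ovaries with most Ighg2c did not share a leading gene. Ighv1-26 led the heavy genes in 4 libraries, of WT, ARE+/- and ARE-/- mice. Iglv1 led the lambda genes in all 18, with 56.5% in uterus ARE-/- 1, where Iglv2 took 41.5%, and 77.8% to 99.3% elsewhere.

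Some uterus and ovary libraries with the same genotype and number had like profiles. For ARE+/- 1, Ighv1-18 took 7.14% in uterus and 6.36% in ovary, and Igkv10-96 took 11.3% and 8.33%. Heavy overlap was 77.1% for that pair, 70.3% for ARE+/- 2 and 65.8% for WT 2. For each of these 6 libraries the partner was the closest of the 17 others by heavy genes. By kappa genes it was so for 4 of the 6; uterus ARE+/- 2 and ovary WT 2 were closest to uterus ARE-/- 2, at 67.9% and 66.2%, against 66.7% and 65.1% with the partner. The heavy overlap of the 7 pairs with equal labels ranged from 43.9% to 77.1% (median 58.8%), and that of the 74 other pairs of a uterus and an ovary from 39.8% to 67.2% (median 55.0%).

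**Figure D5:**
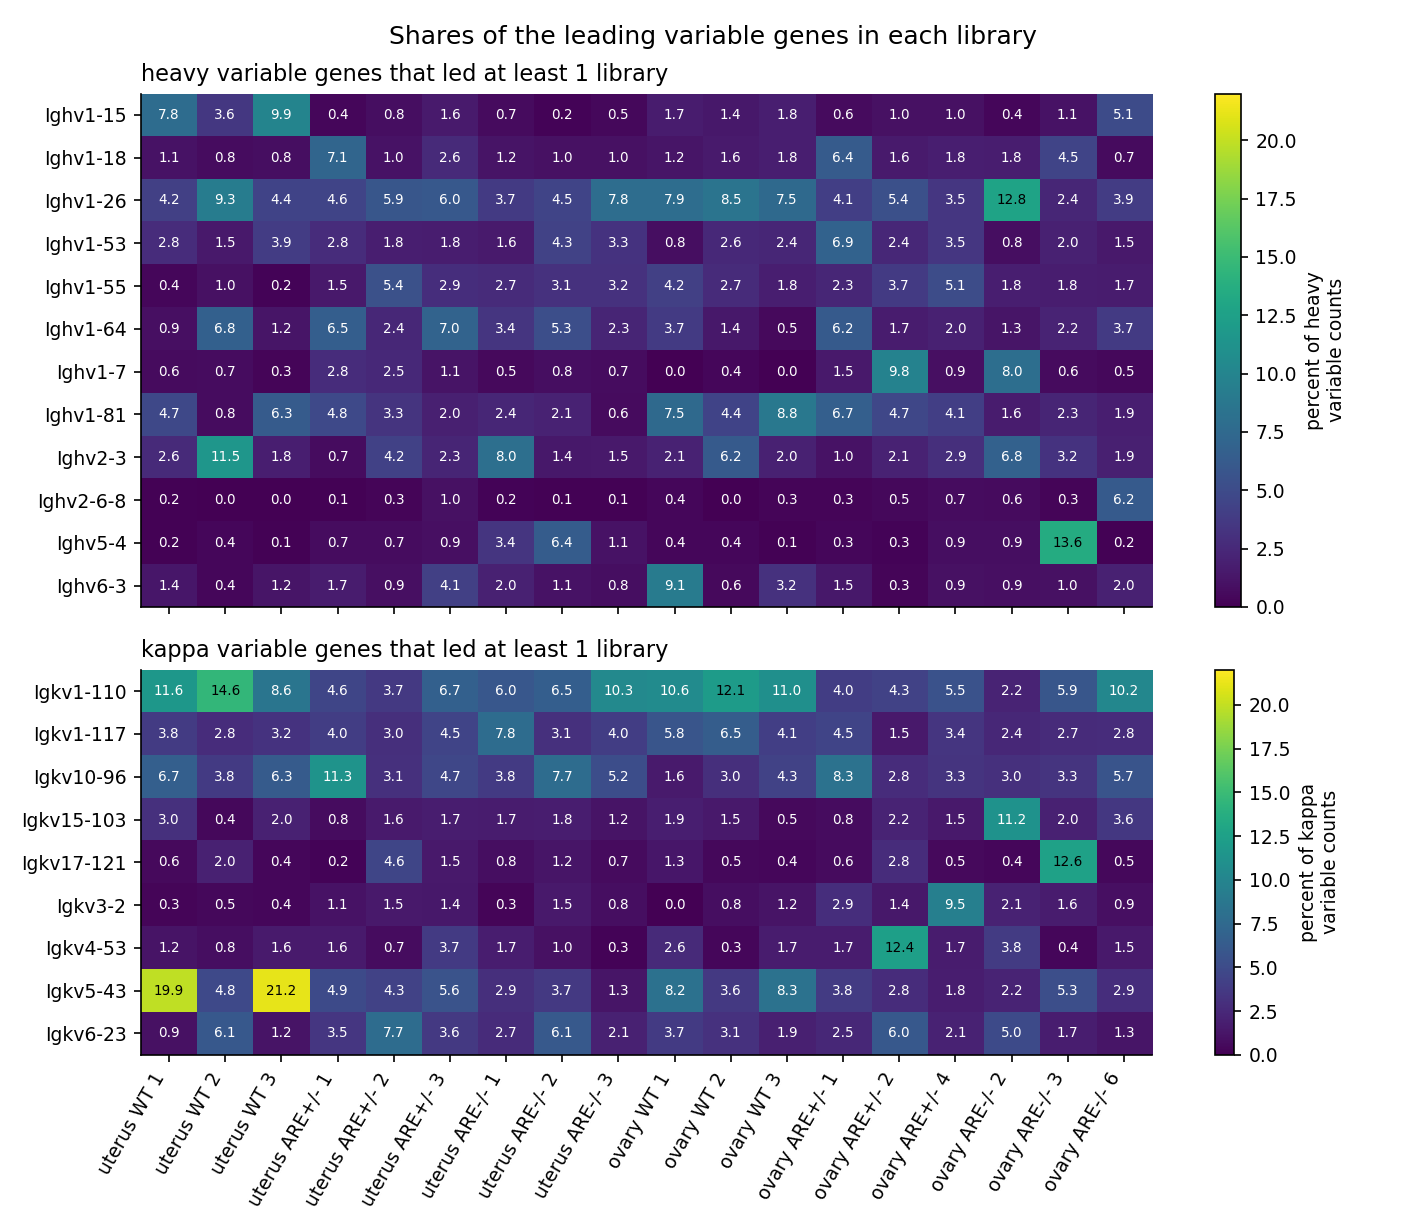
Percent of heavy (top) and kappa (bottom) variable counts taken in each of the 18 libraries by the genes that led at least 1 of them; colour and the printed value give the share. Igkv5-43 stands out in uterus WT 1 and WT 3, and most other leaders are high in 1 or 2 libraries.

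Genes of the cells that make antibody were examined from lists that hold no immunoglobulin gene. Jchain, which joins IgA and IgM into polymers, measured 69.0, 85.0 and 68.3 CPM in WT, 210.4, 124 and 179 in ARE+/- and 82.9, 207 and 111 in ARE-/- uterus (log2 difference 0.89 ± 0.29, SE; adjusted p = 0.134). In uterus, of 14 plasma cell genes 0 were called in ARE-/- by edgeR, and of 15 B cell genes 1, Cd37, was called higher. The plasma cell genes, Jchain among them, summed to 783 to 1092 CPM in WT and 674 to 980 in ARE-/- uterus. Abundant genes weigh most in such a sum. The median log2 fold change of the plasma cell genes in ARE-/- uterus was 0.82, and that of the B cell genes 1.12, against 0.04 over all genes. The B cell genes summed to 35.3, 35.2 and 32.3 CPM in WT and 51.6, 64.5 and 103 in ARE-/- uterus. In ovary, Cd79a, part of the B cell receptor, had 1.40, 0.899 and 1.03 CPM in WT and 3.73, 18.1 and 1.21 in ARE-/-, and ARE-/- 3 was highest. Called higher in ARE-/- ovary were 3 of 15 B cell genes (Bank1, Cd37 and Cd79b) and 3 of 13 plasma cell genes tested (Slamf7, Tnfrsf13b and Xbp1). The plasma cell sum was 664 to 895 CPM in WT and 814 to 865 in ARE-/- ovary, and these ranges overlapped. Median log2 fold changes in ARE-/- ovary were 0.41 for plasma cell and 2.37 for B cell genes, against 0.02 over all genes.

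Receptors that bind antibody were called in both tissues. Fcgr4, the mouse receptor for IgG2 classes, rose from 2.08, 3.35 and 1.63 CPM in WT to 43.3, 36.3 and 50.9 in ARE-/- uterus (log2 difference 4.29 ± 0.43, SE; adjusted p = 0.000897) and from 3.67, 5.27 and 5.20 to 146, 88.4 and 46.0 in ARE-/- ovary (log2 difference 4.36 ± 0.83, SE; adjusted p = 0.0213). Fcgr1, the high-affinity IgG receptor, rose by 2.06 ± 0.37 (SE; adjusted p = 0.0167) in ARE-/- uterus and 2.51 ± 0.28 (SE; adjusted p = 0.00121) in ARE-/- ovary. Of the receptor and transport list, 4 of 11 genes were called higher in ARE-/- uterus and 8 of 10 tested in ARE-/- ovary. Pigr, which carries IgA and IgM across epithelium, was among those 8, with 2.29, 2.31 and 7.62 CPM in WT and 21.3, 43.2 and 13.3 in ARE-/- ovary; in uterus it scattered from 53.4 to 968 CPM without a call.

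Ifng itself was called higher in ARE-/- uterus (0.106, 0.132 and 0 CPM in WT and 2.23, 3.24 and 1.69 in ARE-/-; log2 difference 4.93 ± 0.80, SE; adjusted p = 0.0108) and ovary (log2 difference 4.04 ± 0.80, SE; adjusted p = 0.0129). Tnfsf13b, the B cell survival factor BAFF, was called in ovary, at 1.91 ± 0.24 (SE; adjusted p = 0.00440) in ARE+/- and 2.53 ± 0.24 (SE; adjusted p = 0.000353) in ARE-/-. Tgfb1 rose in ARE-/- uterus by 1.04 ± 0.21 (SE; adjusted p = 0.0250). The lists were drawn up with earlier results of these data known and are described by counts alone.

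Genes of other cell types moved with the altered allele as well. The 8 T cell genes were all called higher in ARE-/- uterus and in ARE-/- ovary, with sums of 20.7, 20.9 and 17.5 CPM in WT and 99.1, 117 and 131 in ARE-/- uterus. Fat cell genes, 8 of 8 tested, and red cell genes, 5 of 6, were called higher in ARE-/- uterus. The fat cell sum was 65.7, 82.2 and 62.6 CPM in WT and 12025, 1487 and 877 in ARE-/- uterus, and the red cell sum 209, 99.4 and 214 in WT and 6091, 1338 and 845 in ARE-/-; ARE-/- 1 was highest for both, and it also held the most ovary-defining RNA of the uteri, 229.5 CPM. At most 1 gene of the fat cell list was at 0 in any library. The part of these cell types in the immunoglobulin results was not tested. Each ARE-/- uterus exceeded each WT uterus in both sums, so leaving out single libraries, ARE-/- 1 among them, cannot decide this. With single libraries left out, the ARE-/- log2 fold changes in uterus ranged from 2.58 to 2.98 for Ighm and from 4.53 to 5.10 for Ighg2c.

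The 4 ovaries with most immunoglobulin RNA, ARE-/- 2 and 3 and ARE+/- 1 and 4, were also the 4 with least RNA of ovary-defining genes. These summed to 7688, 7398 and 6794 CPM in WT, 5565, 7372 and 3858 in ARE+/- and 3105, 1805 and 6956 in ARE-/- ovary. ARE-/- 6, low in Ighg2c, stood in the WT range for this sum and held 82.6 CPM of fat cell genes against 204, 198 and 146 in WT, while ARE-/- 2 and 3 held 1229 and 1841. Genes of lymph node stroma and high endothelial venules summed to 125, 107 and 98.0 CPM in WT and 160.1, 217 and 125 in ARE-/- ovary, and Ccl19 and Chst4 were among those called higher. Of 4 oviduct genes, 3 (Foxj1, Ovgp1 and Tppp3) were called higher in ARE-/- ovary. The part of tissue composition in the ovary results was not tested.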

How the data were processed

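Total RNA of 18 libraries was sequenced in read pairs, per the labels' protocols. The authors deposited raw counts per gene. Per the file headers, these came from featureCounts 2.0.4 with GENCODE release M32. The options recorded there count multi-mapping reads for every place and overlapping genes each, count mates singly and set no strand, so related or overlapping genes, sense or antisense, can share reads. STAR, DESeq2 and mm10 are named in the submitters' processing notes. Of counts from 1 to 20, 71.5% were even, so counts exceed the number of fragments and counting intervals are too narrow.

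Symbols came from GENCODE M21 (91.3% of gene IDs matched). No row without a gene entered the totals. edgeR 4.0.16 (R 4.3.3, limma 3.58.1; filterByExpr, TMM, robust quasi-likelihood test) was fitted per tissue over 9 libraries, or over all 18 for comparisons between tissues, with Benjamini-Hochberg adjustment over all genes tested and a threshold of 0.05. Shares were tested by exact permutation (Python 3.11.15, numpy 2.4.6, scipy 1.17.1), adjusted over 18 tests by genotype and 9 by tissue. The scripts were tested on simulated data. Alternatives were other scaling, no filter, DESeq2 1.42.0, a replicate block, 2 genotypes alone, other lengths and denominators, and each library left out. Genes to which DESeq2 gave no adjusted p were left out of its background shares. The shortest transcript as length, and libraries left out for the spread of variable genes, were chosen after seeing the data.

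Named were the 12 constant genes, the 5 variable genes with most counts per tissue, leading genes of a library, up to 5 called rises and 5 called falls per comparison with at least 1 CPM in a group, and a fixed set of other genes, of which those that bear on the text are given. Some genes of the other lists are not reported here. The genes and lists were chosen with earlier results of these data known. Library totals of 33185496 to 49720354 counts set the precision. Where nothing ties libraries to separate mice, p-values measure the spread between these libraries.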

Additional observations from a re-analysis of the deposited data

How the results depend on the processing

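The uterus calls of Ighm and Ighg2c in ARE-/- held in all 17 alternatives run. For immunoglobulin genes called, DESeq2, which called more of all genes too, gave 48 in place of 22 (ARE-/- uterus), 47 in place of 13 (ARE+/- uterus), 2 in place of 0 (ARE-/- against ARE+/- uterus), 78 in place of 11 (ARE-/- ovary), 46 in place of 0 (ARE+/- ovary), 56 in place of 34 (WT tissues) and 10 in place of 0 (tissue difference). Without a filter on low counts there were 7 in ARE-/- ovary, 4 in ARE+/- ovary and 12 between WT tissues, where 3.63% and 1.05% of all genes were called higher and 6.10% lower. With only the 2 genotypes compared there were 12 in ARE-/- uterus and 13 in ARE+/- ovary (background 1.58% and 2.11% higher). Leaving out 1 library at a time gave 2 to 27 (ARE-/- uterus), 0 to 18 (ARE+/- uterus), 1 to 55 (ARE-/- ovary), 0 to 9 (ARE+/- ovary), 3 to 41 (WT tissues) and 0 to 2 (the tissue difference). Where given above, the share of all genes called also changed with the library left out. For the other fits with 1 library left out that share is not given here. These ranges therefore cannot be read as particular to immunoglobulin genes. The share slopes that passed numbered 3, 0 for any difference between genotypes, and 0 to 5 with 1 library left out. By Shannon entropy the ovary kappa difference between ARE-/- and WT was 4.56 in place of 1.61, and the heavy one 9.15 in place of 2.96; the latter was -1.47 to 5.19 with 1 library left out, below 0 without ovary ARE-/- 6.

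Libraries with the same number were not taken as pairs, since not every such pair correlated above 0.1 (7 of 9 uterus and 0 of 5 ovary pairs did), and the labels name no shared animal or batch: same-numbered uteri correlated in their deviations from group means by -0.02 to 0.47 and ovaries by -0.31 to 0.03, and the best match had its own number in 7 of 9 uterus and 0 of 9 ovary libraries, for uterus a hint from the data alone. With the replicate block, 58 genes were called in ARE-/- ovary, 4 in ARE+/- ovary and 3 for the tissue difference, all higher, where 4.90%, 0.241% and 0.112% of all genes were. Ovary ARE+/- 4 and ovary ARE-/- 6 each carry a number that no other library has. The block gives each a term of its own, so they no longer inform the genotype difference. These counts therefore cannot be told from an effect of setting those libraries aside.

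Some uncalled values changed sign. The share slope of ovary Ighg2b was -0.0955 percentage points per copy, against 0.551 from plain counts, 0.679 with the shortest transcript, 0.186 with switched isotypes only, -0.282 to 0.433 with 1 library left out (turned without ovary WT 1). The share slope of uterus Igkc was 0.320, against -1.49 to 1.503 with 1 library left out (turned without uterus WT 2 or uterus ARE-/- 2). The kappa share difference between tissues was -0.664, against -1.92 to 0.137 with 1 library left out (turned without uterus WT 3 or uterus ARE-/- 2 or ovary ARE+/- 4 or ovary ARE-/- 2). On the log2 scale against WT, Ighg3 in ARE-/- uterus was -0.14, against -1.39 to 0.46 with 1 library left out (turned without uterus WT 1 or uterus WT 2 or uterus ARE-/- 2). Ighg1 in ARE-/- uterus was -0.19, against -1.42 to 0.18 with 1 library left out (turned without uterus WT 3 or uterus ARE-/- 1 or uterus ARE-/- 3). Ighg3 in ARE+/- uterus was 0.87, against -0.16 to 1.41 with 1 library left out (turned without uterus ARE+/- 1). Iglc1 in ARE+/- uterus was 1.04, against -0.11 to 2.35 with 1 library left out (turned without uterus ARE+/- 3). Ighg3 in ARE-/- ovary was -1.32, against -1.91 to 1.54 with 1 library left out (turned without ovary WT 2). Ighg3 in ARE+/- ovary was -1.02, against -1.79 to 1.83 with 1 library left out (turned without ovary WT 2). The causes of these changes were not tested. Genes with few counts, such as Ighg3, and the WT ovaries, with 481 to 1405 heavy variable counts, limit what can be resolved.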
